A study of Mus musculus with 12 samples.

Results

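The genes described here are 57 genes of the cell division cycle, out of 35907 mouse genes to which the transcripts of 12 RNA-seq libraries were assigned. They were taken from a list of gene symbols. The list holds 4 G1 cyclins and their kinases, 4 S phase cyclins and their kinase, 7 members of the E2F and RB families or other cell cycle transcription factors, 15 replication genes, 24 mitosis genes and 3 inhibitors of cyclin-dependent kinases (CDKs). All 57 passed the filter on low counts in each comparison.

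The libraries were made from spleen cells that the labels call CD4 T cells, from wild-type (WT) C57BL/6 mice or from mice that lack T cell factor 1 in T cells (TCF-1 cKO, given in the labels as TCF-7 cKO after the gene Tcf7). In the cKO mice a floxed Tcf7 gene is removed by CD4cre, a Cre recombinase driven by Cd4 regulatory sequence, which acts at the double-positive stage in the thymus and so reaches both CD4 and CD8 T cells. Donor mice were 8 to 12 weeks old. Pre-Tx libraries came from donor cells before transplant, and Post-Tx libraries from donor cells sorted by their H2Kb marker out of the spleens of recipients on day 7, with 3 libraries in each of the 4 groups. For the Post-Tx sort the study's methods name CD8 T cells, where the labels say CD4. Recipients in both genotypes were lethally irradiated female BALB/c mice, which differ from the donors at the major histocompatibility complex, and each also received T cell-depleted WT bone marrow of the H2Kb type. The labels do not say whether a library is 1 mouse or a pool, so p-values measure the spread between these libraries.

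A resting T cell enters the cycle when D-type cyclins with Cdk4 or Cdk6, and then cyclin E with Cdk2, phosphorylate the RB proteins and release E2F factors. E2F factors switch on the genes that license and copy DNA. A later wave of mitosis genes, whose promoters often hold CHR and CCAAT elements, is driven with the help of B-Myb and Foxm1. CDK inhibitors oppose these kinases, and naive T cells are known to leave this resting state within days of meeting antigen, alloantigens included.

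Before the members are described, the content of the libraries has to be given. The libraries held 17103415 to 49486745 estimated counts, and every WT Post-Tx library (27109156 to 49486745) was above every library of the other groups. In the Pre-Tx libraries the 13 B cell markers summed to 8410 to 11100 CPM (counts scaled to a common library total) against 1900 to 3780 for the 12 T cell markers, and in the Post-Tx libraries to 46.7 to 129 against 6150 to 9620. Cd79a, a part of the B cell receptor, was at 2050 to 2560 CPM in the 6 Pre-Tx libraries, while Cd4 was at 65.4 to 151 CPM in the same libraries, so B cell markers outweighed T cell markers in the libraries labelled as Pre-Tx CD4 T cells. In Post-Tx libraries Cd4 was at 1100 to 1160 CPM in WT and 709 to 856 in cKO, and Cd8a, a chain of the CD8 co-receptor, at 1.04 to 7 and 10.2 to 15.4. Before transplant Cd8a was at 130 to 166 CPM in WT and 71.4 to 81.6 in cKO. Of all T and B cell markers, only Fcrla, a B cell gene, was at 0 in any library. The 10 erythroid markers measured, the haemoglobin genes among them, summed to 4550 to 26300 CPM in the Pre-Tx libraries and to 714 to 5790 after transplant. Between genotypes Tcf7 did not pass the test at either stage: its log2 fold change was -0.04 ± 0.23 (SE) before transplant (adjusted p = 0.924) and -0.66 ± 0.22 after it (adjusted p = 0.0669). Counts over the whole gene need not show the loss of a floxed exon, and no Tcf7 exon was examined. Why Tcf7 did not pass was not tested, so every direction between genotypes below rests on the labels.

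**Figure D1:**
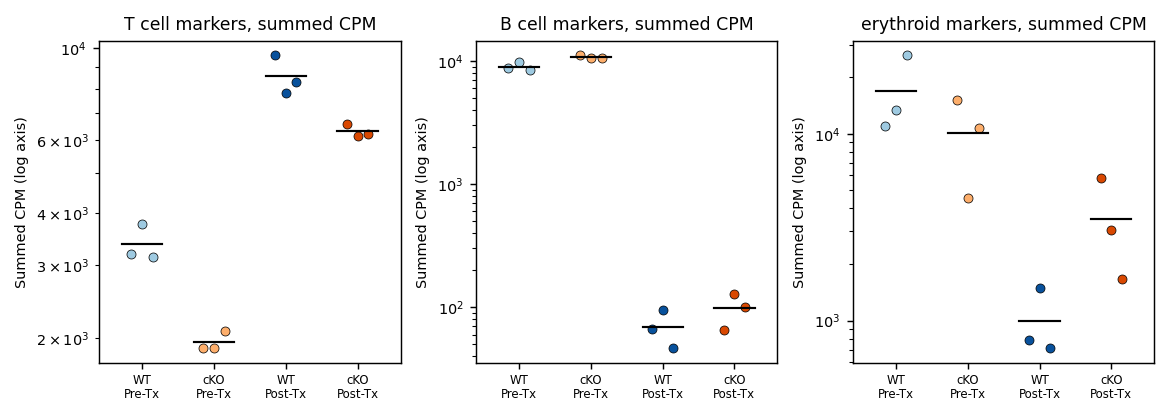
Each panel shows the summed CPM of a list of cell type markers (log axis) in the 12 libraries, 3 per group, with a bar at the group mean. B cell markers fell from sums of 8410 to 11100 CPM before transplant to 46.7 to 129 after it, and T cell markers were higher after transplant in both genotypes.

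The promoters of 4 members are printed here because most replication and mitosis genes rose after transplant in the reported fit, as described next. These 4 are among the genes with the full values below, and a link between promoter letters and the rise was not tested. Each run is the 200 bases before the RefSeq start on the gene's own strand, 5′ to 3′, from RefSeq on build GRCm38.p6 (the labels name mm9 as the build of the processed files). Capitals mark letters of 3 motifs on either strand: E2F-type letters (TTCCCGC or TTGGCGC), CHR letters (TTTGAA or TTCGAA) and CCAAT. The second E2F-type word, read on the other strand, can share bases with CCAAT.
Mcm6, chr1:128359706-128359905, minus strand: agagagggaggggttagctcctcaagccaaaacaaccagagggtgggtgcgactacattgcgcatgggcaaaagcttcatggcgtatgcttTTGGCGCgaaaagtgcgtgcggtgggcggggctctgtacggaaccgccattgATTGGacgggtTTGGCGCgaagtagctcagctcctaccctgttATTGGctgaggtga
Cdk1, chr10:69352913-69353112, minus strand: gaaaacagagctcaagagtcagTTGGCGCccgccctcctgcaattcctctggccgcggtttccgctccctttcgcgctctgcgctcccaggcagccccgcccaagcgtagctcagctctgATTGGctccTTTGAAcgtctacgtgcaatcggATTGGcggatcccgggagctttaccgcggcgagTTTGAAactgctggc
Top2a, chr11:99024190-99024389, minus strand: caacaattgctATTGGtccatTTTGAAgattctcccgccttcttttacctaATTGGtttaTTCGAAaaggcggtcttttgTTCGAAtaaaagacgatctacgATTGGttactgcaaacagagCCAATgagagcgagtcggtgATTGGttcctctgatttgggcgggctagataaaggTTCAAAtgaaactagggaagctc
Mki67, chr7:135716380-135716579, minus strand: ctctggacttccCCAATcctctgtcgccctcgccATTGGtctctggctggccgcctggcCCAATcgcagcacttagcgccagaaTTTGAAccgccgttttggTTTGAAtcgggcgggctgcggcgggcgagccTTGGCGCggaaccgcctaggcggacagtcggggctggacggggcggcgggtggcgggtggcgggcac

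Over the wider window of 250 bases before to 50 after the start, the letters fell unevenly over the roles. The table of promoters held 47 of the 57 members and 27025 genes in all. Tpx2, Aurkb, Foxm1, Ccnd2, Kif20a, Mcm4, Ccne2, Ccna2, Stmn1 and Rb1 had no entry. CHR letters were found in 15 of 20 mitosis members (75%) and 3 of 14 replication members (21.4%), beside 21.7% of all genes. The same 15 mitosis promoters also held CCAAT, while CHR with CCAAT was found in 8.61% of all genes. E2F-type letters were found in 8 of 14 replication members (57.1%) and 3 of 20 mitosis members (15%), beside 7.79% of all genes. CCAAT, with or without CHR letters, was found in 33 of 47 members (70.2%) and 41.1% of all genes. None of the 3 CDK inhibitors held CHR letters and 1 held E2F-type letters. These are matches of letters and say nothing of binding.

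To see how the cycle genes changed when WT cells were transplanted, WT Post-Tx was compared with WT Pre-Tx. Of the 57 members, 50 rose and none fell at an adjusted p under 0.05 in edgeR's quasi-likelihood test, where 11.6% of all 21434 genes rose and 10.4% fell; with libraries scaled to their T cell marker counts instead, 36 rose and 4 fell. The median log2 fold change of the members was 2.43, and that of all genes was -0.41 (-1.67 under the T cell scaling). All 24 mitosis members and all 4 of the S phase cyclin group rose, as did 14 of 15 replication members, 4 of 7 transcription factors, 2 of 4 in the G1 group and 2 of 3 inhibitors. In 51 members every WT Post-Tx library lay above every WT Pre-Tx library in normalized CPM, which held for 18% of all genes, and in none did every one lie below (20.9% of all genes). In bulk libraries, fewer cells of a type and less RNA per cell cannot be told apart. The 13 B cell markers all fell and the 12 T cell markers all rose in the same comparison, and their part in the members' change was not tested.

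In cKO cells the same comparison gave a smaller set. TCF-1 cKO Post-Tx against TCF-1 cKO Pre-Tx had 42 members higher and none lower, where 14.2% of all genes rose and 12.5% fell, but scaling to T cell marker counts gave 19 higher and 12 lower. The members' median was 1.72, beside 0.36 over all genes (-0.85 under the T cell scaling). By role, 22 of 24 mitosis members rose, 11 of 15 replication members, 3 of 4 in the S phase cyclin group, 3 of 7 transcription factors, 2 of 4 in the G1 group and 1 of 3 inhibitors. In normalized CPM the Post-Tx libraries of 44 members all lay above the Pre-Tx ones (30.1% of all genes). In 1 member, Cdkn1b, they all lay below (20.1%). The B cell markers fell here too, 13 of 13, and 10 of 12 T cell markers rose.

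**Figure D2:**
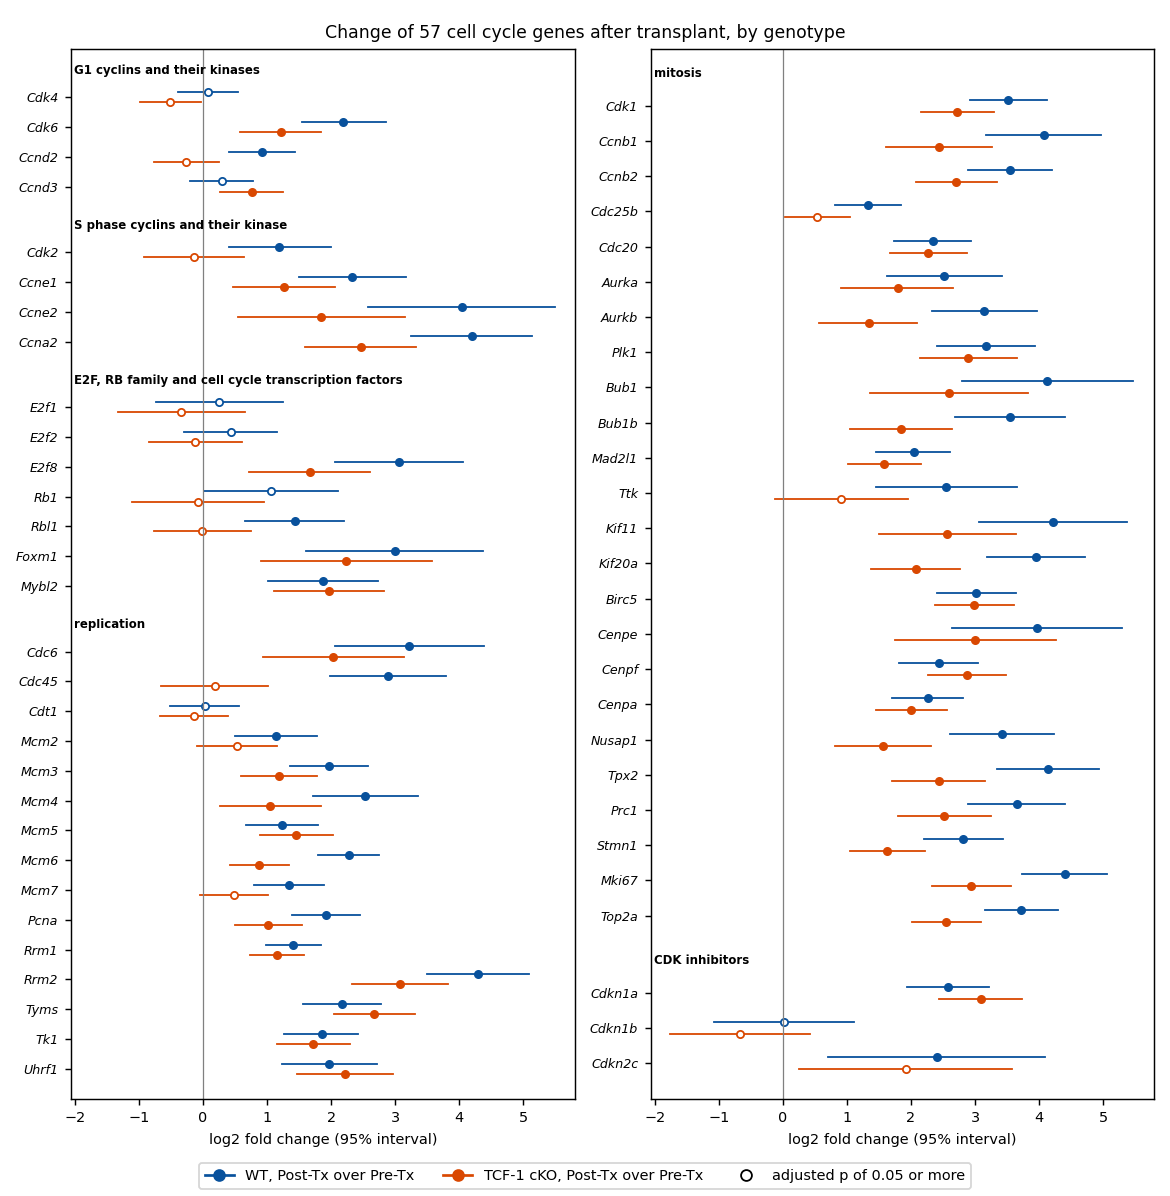
Points give the log2 fold change of each of the 57 genes, Post-Tx over Pre-Tx, in WT (blue) and TCF-1 cKO (orange) cells, with 95% intervals; open points had an adjusted p of 0.05 or more. WT points lie between 0.02 and 4.40 and cKO points between -0.67 and 3.09. Under the T cell marker scaling 4 WT and 12 cKO genes fell, with all-gene medians of -1.67 and -0.85.

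The mitosis genes had the widest change. Values per library are given below in TPM (transcript abundance scaled for length and library total), in replicate order, so that levels can be set beside each other. Mki67, which codes for the Ki-67 protein of cycling cells, was at 1.48, 0.962 and 1.15 TPM in WT Pre-Tx and at 32.2, 25.3 and 24.5 in WT Post-Tx. In cKO cells it was at 2.05, 3.31 and 3.4 before and 29.5, 30.4 and 41.5 after transplant. The Pre-Tx and Post-Tx libraries were far apart in both genotypes, and the log2 fold changes from the counts were 4.40 ± 0.31 (SE, adjusted p = 3.64e-08) in WT and 2.94 ± 0.29 (adjusted p = 1.88e-06) in cKO. Top2a, a topoisomerase that untangles chromosomes, was at 8.97, 4.91 and 8.06 TPM in WT Pre-Tx and 79.2, 78.1 and 66.1 in WT Post-Tx. Its cKO values were 12.8, 11.6 and 12.5 before and 78.6, 85.3 and 113 after. The Post-Tx libraries of the genotypes overlapped while the Pre-Tx ones did not, and Top2a rose by 3.72 ± 0.27 in WT and 2.55 ± 0.26 in cKO on the log2 scale.

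Cdk1 is the kinase that starts mitosis with the B-type cyclins. Cdk1 was at 12.3, 8.03 and 10.2 TPM in WT Pre-Tx and 138, 163 and 134 in WT Post-Tx. In cKO cells it stood at 21.4, 16.1 and 26.6, then 224, 189 and 202. All cKO libraries exceeded the WT ones in TPM at either stage, yet in TMM-normalized counts the Post-Tx genotypes differed by only 0.11 ± 0.23 (adjusted p = 0.752). Ccnb1, its cyclin, was at 11.4, 6.09 and 3.64 TPM in WT Pre-Tx and 214, 122 and 123 in WT Post-Tx, against 8.01, 22.4 and 27.2, then 158, 168 and 135, in cKO. The Pre-Tx libraries of Ccnb1 overlapped between genotypes. Its log2 fold change after transplant was 4.07 ± 0.43 in WT (adjusted p = 2.9e-06) and 2.44 ± 0.40 in cKO (adjusted p = 0.00031). Ccnb2, the other B-type cyclin on the list, rose by 3.55 ± 0.31 in WT and 2.71 ± 0.30 in cKO.

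Aurkb, the kinase of the chromosomal passenger complex, was at 12, 6.47 and 5.17 TPM in WT Pre-Tx and at 107, 64.3 and 64.5 in WT Post-Tx. Its cKO values were 25.4, 23.8 and 22.8 before and 105, 78.6 and 83.7 after transplant. The Pre-Tx genotypes did not overlap and the Post-Tx ones did. Aurkb rose by 3.14 ± 0.39 in WT (adjusted p = 1.64e-05) and by 1.34 ± 0.36 in cKO (adjusted p = 0.0137), and the latter was lost without TCF-1 cKO Post-Tx replicate 1 (1.14, adjusted p = 0.0505). Birc5, the survivin subunit of the same complex, went from 28.6, 16.5 and 18.3 to 272, 322 and 282 TPM in WT and from 18.2, 30.3 and 42.6 to 414, 280 and 406 in cKO. The changes of Birc5 were nearly equal, 3.02 ± 0.29 in WT and 2.99 ± 0.29 in cKO, and their difference was -0.03 (95% interval -0.84 to 0.78).

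The other mitosis members rose by 1.33 to 4.22 on the log2 scale in WT. The largest were Kif11, a spindle motor (4.22 ± 0.55), Tpx2, a spindle assembly factor (4.14 ± 0.38), Bub1, a checkpoint kinase (4.13 ± 0.63), and Cenpe, a kinetochore motor (3.97 ± 0.63). All of these had low levels in WT Pre-Tx, 0.156 to 2.10 TPM. The smallest was Cdc25b, a phosphatase that activates Cdk1, at 1.33 ± 0.24. In cKO cells Cdc25b (0.54 ± 0.24, adjusted p = 0.0973) and the checkpoint kinase Ttk (0.91 ± 0.49, adjusted p = 0.161) did not pass. After transplant the most abundant mitosis member was Stmn1, a microtubule regulator, at 441 to 505 TPM in WT and 417 to 590 in cKO. Kif20a, a motor of cell division, went from 1.85, 3.12 and 4.56 to 60.8, 42.2 and 40.6 TPM in WT and from 4.94, 6.98 and 10.6 to 45.2, 49.9 and 52.2 in cKO. Its stages were far apart, and its rise was 3.95 ± 0.36 in WT and 2.08 ± 0.33 in cKO. Bub1b went from 2.99, 2.9 and 1.88 to 43.9, 22.6 and 25.1 TPM in WT and from 5.61, 5.78 and 7.66 to 43.8, 29.2 and 28.2 in cKO. The remaining mitosis members, Cdc20, Aurka, Plk1, Mad2l1, Cenpf, Cenpa, Nusap1 and Prc1, rose by 2.04 to 3.65 in WT and by 1.56 to 2.89 in cKO. The centromeric histone Cenpa was at 292 to 392 and 304 to 386 TPM.

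**Figure D3:**
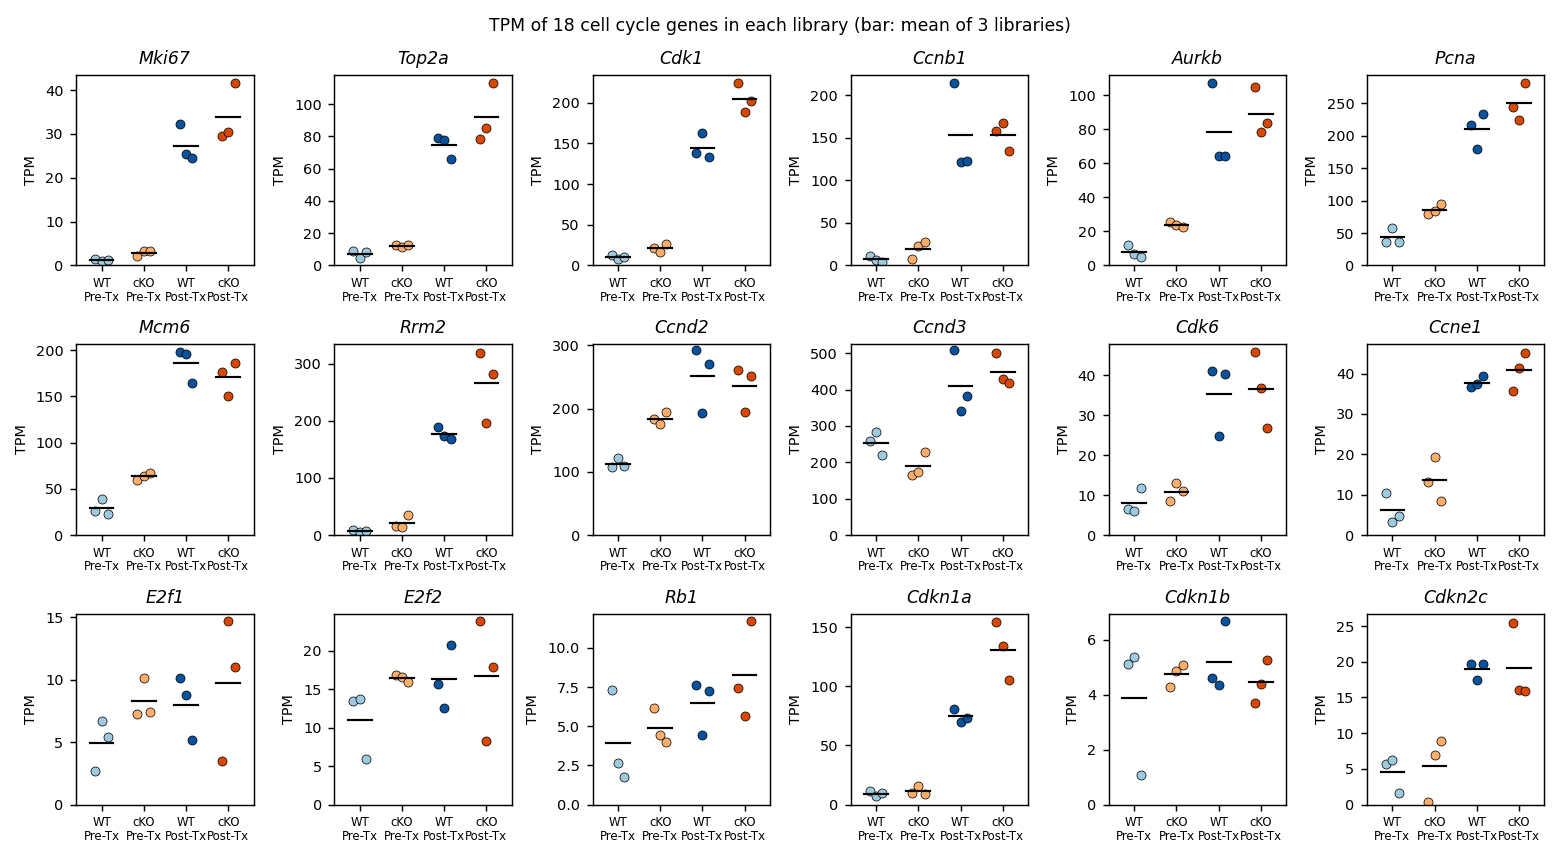
TPM of 18 cell cycle genes in each of the 12 libraries, 3 per group, on linear axes from 0 with a bar at the group mean. Mki67, Top2a, Cdk1, Ccnb1, Rrm2 and Cdkn1a separate Pre-Tx from Post-Tx libraries in both genotypes, while E2f1, E2f2, Rb1 and Cdkn1b overlap between stages in both.

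Replication genes rose too, from a higher starting level. Pcna, the sliding clamp of DNA polymerases, was at 36.0, 57.2 and 36.5 TPM in WT Pre-Tx and 217, 180 and 233 in WT Post-Tx. The cKO libraries had 79.8, 84.1 and 94.6, then 244, 224 and 282. Pre-Tx values of the genotypes did not overlap. Pcna rose by 1.92 ± 0.25 in WT (adjusted p = 3.31e-05) and by 1.02 ± 0.25 in cKO (adjusted p = 0.00702), and the cKO change turned to -0.17 (adjusted p = 0.465) when scaled to T cell marker counts. Mcm6, part of the replicative helicase, was at 26.4, 38.5 and 22.6 TPM in WT Pre-Tx and at 198, 196 and 165 in WT Post-Tx. In cKO cells Mcm6 was at 59.4, 63.8 and 67.0, then 177, 150 and 186. Its rise was 2.27 ± 0.22 in WT (adjusted p = 1.51e-06) and 0.88 ± 0.22 in cKO (adjusted p = 0.00788; -0.32, adjusted p = 0.136, under the T cell scaling).

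Rrm2, the regulated subunit of ribonucleotide reductase, had the largest change among the replication members. It went from 8.06, 5.37 and 7.69 to 189, 173 and 168 TPM in WT and from 15.5, 13.2 and 34.3 to 319, 197 and 283 in cKO. Stages were apart in both genotypes, by 4.29 ± 0.38 in WT (adjusted p = 4.26e-07) and 3.08 ± 0.36 in cKO (adjusted p = 1.08e-05). Tyms, thymidylate synthase, went from 19.3, 10.3 and 13.2 to 256, 222 and 230 TPM in WT and from 10.4, 15.5 and 35.3 to 271, 131 and 229 in cKO. Its change was 2.17 ± 0.29 in WT and 2.67 ± 0.30 in cKO, and 1 cKO Post-Tx library (replicate 2) lay below the other two. The 6 helicase subunits Mcm2 to Mcm7 all rose in WT, by 1.13 to 2.53, though under the T cell scaling Mcm2 (-0.19) and Mcm5 (-0.09) changed sign, and Mcm2 did not pass without WT Post-Tx replicate 1 (0.85, adjusted p = 0.0763). In cKO cells 4 of them rose and Mcm2 (0.53 ± 0.30, adjusted p = 0.183) and Mcm7 (0.48 ± 0.25, adjusted p = 0.152) did not pass, and under the T cell scaling Mcm2 (-0.65) and Mcm7 (-0.72) were lower in cKO while Mcm3 (-0.02), Mcm4 (-0.13) and Mcm6 (-0.32) changed sign. The Mcm4 rise in cKO (1.05 ± 0.37, adjusted p = 0.0462) did not pass without any 1 of TCF-1 cKO Pre-Tx replicates 1 and 2, the 3 TCF-1 cKO Post-Tx libraries and the 3 WT Post-Tx libraries (0.82 to 1.12).

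Tk1, thymidine kinase, went from 22.1, 25.3 and 19.6 to 149, 94.8 and 88.1 TPM in WT and from 25.2, 20.2 and 27.3 to 130, 99.3 and 101 in cKO. Uhrf1, which carries DNA methylation through replication, went from 16, 7.6 and 19.5 to 86, 54.1 and 43.4 TPM in WT and from 5.41, 6.39 and 11 to 46.9, 64.8 and 54.5 in cKO. Both were apart between stages in each genotype, with rises of 1.85 ± 0.27 and 1.97 ± 0.35 in WT and of 1.72 ± 0.27 and 2.22 ± 0.36 in cKO. Cdc6, which loads the helicase, rose by 3.22 ± 0.55 in WT and 2.03 ± 0.52 in cKO, and Rrm1, the large subunit of ribonucleotide reductase, by 1.41 ± 0.20 and 1.16 ± 0.20 (-0.05 in cKO under the T cell scaling).

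Cdt1, a licensing factor, was the replication member that did not pass in WT (0.03 ± 0.25, adjusted p = 0.945). Its TPM of 28.8 to 36.6 before and 33.8 to 53.7 after transplant overlapped in WT. In cKO 4 of the 15 replication members did not pass, Cdt1, Mcm2, Mcm7 and Cdc45, and the lowest change of the 15 was -0.15. Cdc45, which joins the helicase, went from 6.44, 8.72 and 2.87 to 69.2, 51.5 and 47.6 TPM in WT. Its cKO values went from 78.3, 26.7 and 20.1 to 38.6, 64.8 and 53.5. In cKO 1 Pre-Tx library (replicate 1) was above every Post-Tx library, the others were below, and the cKO change was 0.18 ± 0.40 (adjusted p = 0.751).

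**Figure D4:**
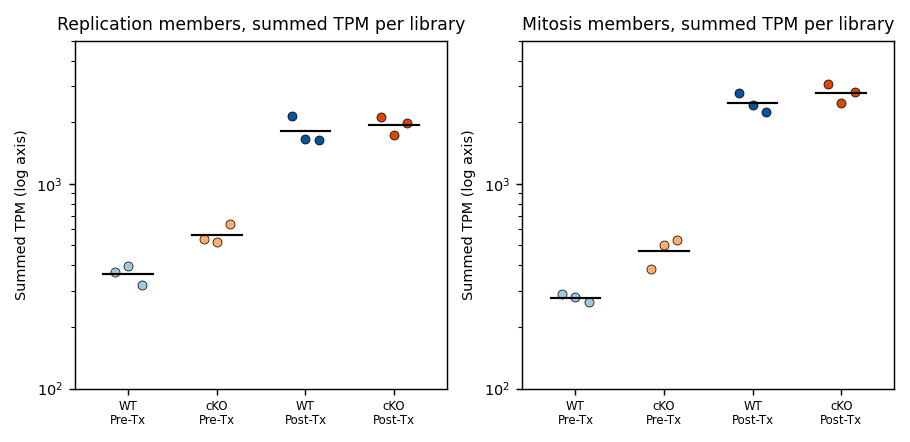
Summed TPM (log axis) of the 15 replication members and of the 24 mitosis members in each library, with a bar at the mean of 3 libraries. Replication sums rose from 321 to 395 in WT Pre-Tx to 1630 to 2150 in WT Post-Tx, and mitosis sums from 264 to 289 to 2240 to 2780.

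Replication and mitosis genes can be set apart by their sums. The 15 replication members summed to 362 ± 37.6 TPM in WT Pre-Tx (mean ± SD, n = 3), 563 ± 63.4 in cKO Pre-Tx, 1820 ± 294 in WT Post-Tx and 1940 ± 187 in cKO Post-Tx. The 24 mitosis members summed to 278 ± 12.8, 472 ± 79.4, 2490 ± 275 and 2790 ± 288 TPM in the same order. By TPM, replication therefore outweighed mitosis before transplant and not after it. The ratio of the replication sum to the mitosis sum was 1.22 to 1.41 in WT Pre-Tx and 1.03 to 1.40 in cKO Pre-Tx, and 0.680 to 0.774 and 0.689 to 0.704 after transplant, so the stages did not overlap in either genotype and the genotypes overlapped at each stage. With 3 libraries a group, an exact permutation test of such a ratio could not have fallen under 0.10, and none was run. The sums depend on the measure. In normalized CPM the replication members summed to 1050 ± 69.8, 1370 ± 284, 3590 ± 731 and 3130 ± 338, in the same order of groups. The mitosis members summed to 531 ± 10.4, 814 ± 158, 3660 ± 578 and 3290 ± 384. By that measure the roles were close after transplant, and the cKO means lay below WT with overlapping libraries.

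The cyclins that act earlier changed less. Ccnd2 and Ccnd3 are the D-type cyclins of lymphocytes. Ccnd2 was at 108, 122 and 109 TPM in WT Pre-Tx and 293, 193 and 271 in WT Post-Tx, and at 183, 176 and 194, then 261, 194 and 251, in cKO. The cKO libraries were above WT before transplant and overlapped after it. Ccnd2 rose by 0.92 ± 0.24 in WT (adjusted p = 0.0119; -0.37, adjusted p = 0.0714, under the T cell scaling; 0.78, adjusted p = 0.0726, without WT Post-Tx replicate 3) and its cKO change was -0.26 ± 0.24 (adjusted p = 0.417). Ccnd3 was at 258, 283 and 221 TPM in WT Pre-Tx and 508, 341 and 381 in WT Post-Tx, against 166, 173 and 229, then 500, 429 and 418, in cKO. Its change in counts was 0.29 ± 0.23 in WT (adjusted p = 0.382) and 0.76 ± 0.24 in cKO (adjusted p = 0.0271), and the cKO call was lost without any of 5 of the 12 libraries (TCF-1 cKO Pre-Tx replicates 1 and 2, TCF-1 cKO Post-Tx replicates 1 and 2 and WT Pre-Tx replicate 3; 0.62 to 0.80) and turned to -0.44 under the T cell scaling.

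Their kinase partners differed from each other. Cdk6 was at 6.63, 5.93 and 11.7 TPM in WT Pre-Tx and 41.1, 24.7 and 40.3 in WT Post-Tx, and at 8.39, 13 and 11, then 45.8, 36.8 and 26.9, in cKO. Cdk6 rose by 2.19 ± 0.31 in WT (adjusted p = 7.34e-05) and 1.21 ± 0.30 in cKO (adjusted p = 0.00865; 0.00, adjusted p = 0.994, under the T cell scaling). Cdk4 stood higher, at 153 to 237 TPM before and 187 to 302 after transplant over both genotypes, and its change was 0.08 ± 0.22 in WT and -0.51 ± 0.22 in cKO (adjusted p = 0.814 and 0.0904). Among the S phase cyclins, Ccne1, a cyclin E, went from 10.5, 3.14 and 4.73 to 36.7, 37.3 and 39.3 TPM in WT and from 13.2, 19.4 and 8.43 to 35.7, 41.4 and 45.2 in cKO. The stages did not overlap, with a rise of 2.33 ± 0.39 in WT (adjusted p = 0.000392) and 1.26 ± 0.38 in cKO (adjusted p = 0.0235; not passing without TCF-1 cKO Pre-Tx replicate 1 or 3 or TCF-1 cKO Post-Tx replicate 2 or 3). Ccna2, cyclin A, rose from 3.33 to 9.07 up to 96.9 to 155 TPM in WT, a change of 4.20 ± 0.45, and from 8.08 to 25.8 up to 111 to 159 in cKO, a change of 2.46 ± 0.41. Ccne2, the other cyclin E, was low, at 0.435 to 0.784 TPM in WT Pre-Tx and 5.23 to 7.98 in WT Post-Tx, and at 0.606 to 1.37 and then 3.69 to 10.5 in cKO. It rose by 4.04 ± 0.69 in WT and by 1.84 ± 0.62 in cKO, and the cKO call was lost in 5 fits that left out 1 library (TCF-1 cKO Pre-Tx replicate 1 or 2, TCF-1 cKO Post-Tx replicate 1 or 3, or WT Post-Tx replicate 1; 1.33 to 1.99). Cdk2, which cyclins E and A bind, rose by 1.19 ± 0.38 in WT (adjusted p = 0.031; -0.09, adjusted p = 0.829, under the T cell scaling; not passing without WT Pre-Tx replicate 3 or WT Post-Tx replicate 1 or 3) and was at -0.14 ± 0.37 in cKO (adjusted p = 0.789).

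E2F and RB family genes split by member. E2f1, an activating E2F, was at 2.69, 6.72 and 5.43 TPM in WT Pre-Tx and 10.1, 8.77 and 5.14 in WT Post-Tx, and at 7.24, 10.1 and 7.44, then 3.51, 14.7 and 11, in cKO. E2f2, also an activator, was at 13.4, 13.7 and 5.95 and then 15.6, 12.5 and 20.7 TPM in WT, and at 16.8, 16.5 and 15.9 and then 23.9, 8.30 and 17.8 in cKO. Rb1, the founding RB protein, was at 7.31, 2.68 and 1.75 and then 7.66, 4.47 and 7.26 TPM in WT, and at 6.16, 4.44 and 4 and then 7.46, 5.66 and 11.7 in cKO. All 3 overlapped between stages in TPM and none passed in either genotype (log2 fold changes -0.34 to 1.06, adjusted p = 0.132 to 0.914). E2f8, an atypical E2F that represses, rose by 3.06 ± 0.47 in WT and 1.67 ± 0.45 in cKO (adjusted p = 0.000177 and 0.0131). Foxm1 rose by 2.99 ± 0.66 and 2.23 ± 0.63, and Mybl2, which codes for B-Myb, by 1.87 ± 0.41 and 1.96 ± 0.41, in WT and cKO. The Foxm1 rise in cKO was lost without TCF-1 cKO Pre-Tx replicate 1 (1.80, adjusted p = 0.061). Rbl1, the RB relative p107, rose in WT (1.43 ± 0.37, adjusted p = 0.00971; not passing without WT Post-Tx replicate 3, adjusted p = 0.0536) and was at -0.01 ± 0.36 in cKO.

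The CDK inhibitors did not move as a group. Cdkn1a, which codes for p21, was at 11.5, 6.94 and 9.34 TPM in WT Pre-Tx and 80.5, 70.1 and 73.2 in WT Post-Tx. In cKO cells Cdkn1a was at 9.78, 15.9 and 9.14, then 154, 134 and 105. Post-Tx cKO libraries were all above the WT ones. Cdkn1a rose by 2.58 ± 0.30 in WT (adjusted p = 1.01e-05) and by 3.09 ± 0.31 in cKO (adjusted p = 2.02e-06), the largest rise of any member in cKO. Cdkn1b, p27, which is abundant in resting lymphocytes, was at 5.14, 5.39 and 1.07 TPM and then 4.61, 4.34 and 6.68 in WT, and at 4.29, 4.86 and 5.08 and then 3.70, 4.40 and 5.28 in cKO. Neither change passed (0.02 ± 0.52 in WT and -0.67 ± 0.52 in cKO, adjusted p = 0.979 and 0.328).

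Cdkn2c, p18, an inhibitor of Cdk4 and Cdk6, was at 5.66, 6.25 and 1.67 TPM in WT Pre-Tx and 19.7, 17.5 and 19.7 in WT Post-Tx. Its cKO values were 0.376, 7.01 and 8.93, then 25.5, 16.0 and 15.9. The stages did not overlap in either genotype, with 2.40 ± 0.81 in WT (adjusted p = 0.0406) and 1.92 ± 0.79 in cKO (adjusted p = 0.0769), and the WT call was lost in 6 of 12 fits that left out 1 library (WT Pre-Tx replicate 1 or 3, any WT Post-Tx replicate or TCF-1 cKO Post-Tx replicate 2; 2.11 to 2.77). The transcripts of Cdkn2c also differed by stage: the shorter of 2, of 1106 bases, took 80.5% and 81.5% of the TPM in WT and cKO Pre-Tx and 23.8% and 15.8% in Post-Tx. These are group shares of TPM and were not tested, and TCF-1 cKO Pre-Tx replicate 1 held only 0.376 TPM of the gene.

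To ask whether the genotypes differed before transplant, cKO Pre-Tx was set against WT Pre-Tx. Of 57 members 8 were higher and 1 lower in the libraries labelled TCF-1 cKO, where 8.52% of 17021 genes were higher and 5.65% lower; scaling to T cell marker counts gave 36 higher and none lower, and upper-quartile factors 1 higher and 2 lower. Shares of all genes called under these other scalings were not counted. The members' median was 0.74, beside -0.11 over all genes (0.70 under the T cell scaling), and 45 of 57 were above 0. In normalized CPM the cKO libraries were all above the WT libraries in 22 members and all below in 2, which held for 21.3% and 19.9% of all genes. The 8 were Cdc45 (2.30 ± 0.49, adjusted p = 0.0164), Aurkb (1.61 ± 0.43, 0.0317), the checkpoint gene Bub1b (1.5 ± 0.44, 0.0443), Rrm2 (1.39 ± 0.42, 0.0475), Mcm4 (1.39 ± 0.42, 0.047), Mki67 (1.36 ± 0.41, 0.0457), Top2a (1.11 ± 0.34, 0.0482) and Mcm6 (0.91 ± 0.23, 0.0263). Ccnd3 was lower (-0.69 ± 0.20, adjusted p = 0.0401; 0.11, adjusted p = 0.641, under the T cell scaling), and it did not pass when any 1 of the 6 libraries was left out (-0.79 to -0.58, adjusted p = 0.0722 to 0.154).

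These Pre-Tx calls were close to the threshold. Of the 8, none passed without WT Pre-Tx replicate 1 or without TCF-1 cKO Pre-Tx replicate 1. In the latter fit 2 other members did, Ccnb1 (1.81, adjusted p = 0.048) and Stmn1 (1.22, adjusted p = 0.0479). Cdc45 passed in each of the other 4 such fits, joined by Rrm2 without TCF-1 cKO Pre-Tx replicate 2 and by Mcm6 and Bub1b without WT Pre-Tx replicate 2. In the 6 fits Mki67 stayed between 1.22 and 1.61, Mcm6 between 0.81 and 1.14 and Cdc45 between 1.68 and 2.67. In the 6 libraries compared, 7 of 12 T cell markers were lower and 5 of 13 B cell markers higher in cKO. The T cell marker sum was 1900 to 2080 CPM in cKO against 3140 to 3780 in WT, and the B cell marker sum 10500 to 11100 against 8410 to 9820. The 7 NK cell markers summed to 201 to 282 CPM in cKO against 65.7 to 140 in WT, and 2 of them were higher. Olfactory receptor genes, which T cells are not known to use, summed to 879 to 1550 CPM in cKO against 2530 to 7010 in WT. The part of these lists in the members' differences was not tested.

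After transplant none of the 57 members passed between genotypes, where 6.65% of 19287 genes did (3.52% higher and 3.13% lower in cKO). Without adjustment, 3 members had p under 0.05: Cdk4 (-0.66 ± 0.22, adjusted p = 0.0702), Cdc25b (-0.61 ± 0.25, 0.118) and Cdkn1a (0.54 ± 0.25, 0.141). DESeq2 and limma voom each called 1 lower (Cdk4) and limma on log2 TPM 1 higher (Cdkn1a), leaving out WT Post-Tx replicate 2 gave 1 lower, and scaling to T cell marker counts called 25 higher with an all-gene median of 0.91. Members were also called higher with upper-quartile factors or a mean CPM of at least 10, and lower with the replicate number as a block. Those counts are given in the closing section, and shares of all genes under these settings were not counted. In the reported fit the members' log2 fold changes ran from -0.66 to 0.54 with a median of -0.18, beside 0.09 over all genes. The sign of these small values turned in 29 members with upper-quartile factors (all-gene median 0.37), in 33 with limma on log2 TPM and in 37 of 56 with a mean CPM of at least 10. Only 1 member was higher in every cKO library and 3 were lower in every one, against 22.8% and 16.9% of all genes. For 48 members the 95% interval lay within 1 log2 unit of 0, which was so for 3303 of the 19287 genes, and for Mki67 it ran from -0.51 to 0.47, for Top2a from -0.48 to 0.48 and for Pcna from -0.58 to 0.37. In the same libraries 8 of 12 T cell markers were lower in cKO, with sums of 6150 to 6580 CPM against 7790 to 9620. Of 10 erythroid markers 6 were higher, with sums of 1670 to 5790 against 714 to 1490. Olfactory receptor genes summed to 4480 to 12000 CPM in cKO and 1090 to 3140 in WT. The part of these lists in the genotype values was not tested.

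**Figure D5:**
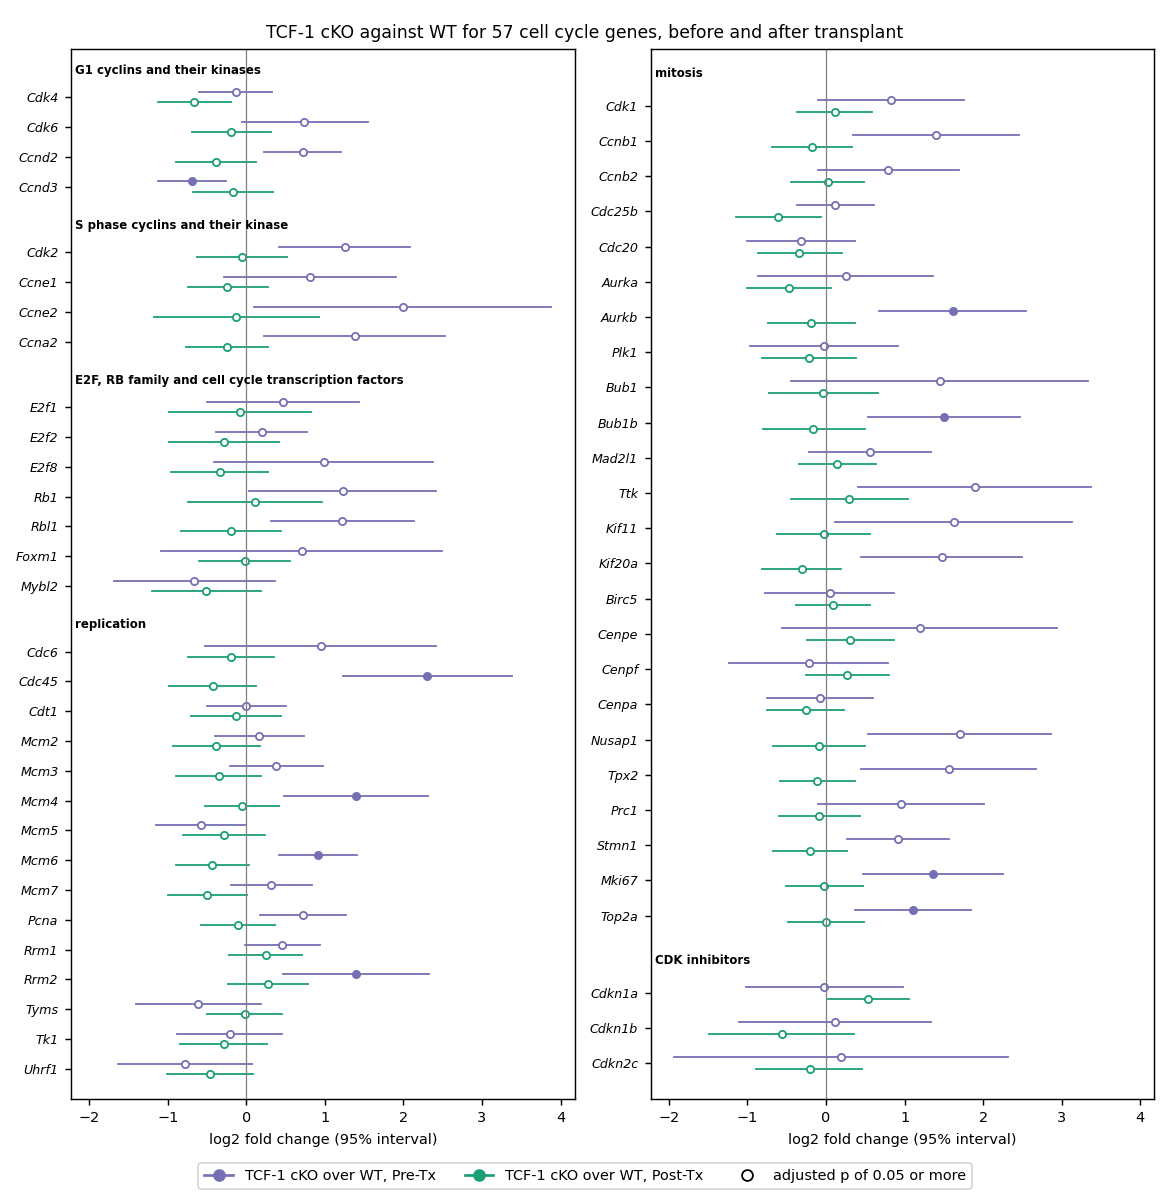
Log2 fold change of TCF-1 cKO over WT for the 57 genes before (purple) and after (green) transplant, with 95% intervals; filled points had an adjusted p under 0.05. Before transplant 8 filled points lie above 0 and 1 below, and after transplant none is filled. Scaling to T cell marker counts would give 36 and 25 higher, but it also moves the all-gene medians to 0.70 and 0.91. Shares of all genes called under that scaling were not counted.

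Whether the transplant change itself differed between genotypes was tested with an interaction term. In 15 members the change was smaller in cKO than in WT and in none larger, where 11.5% of 21434 genes had a smaller and 17.1% a larger change; upper-quartile factors gave 1 smaller and 4 larger, and T cell marker scaling 16 smaller. The members' median difference was -0.90, beside 0.37 over all genes. Mitosis gave 9 of the 15, replication 3 and the G1, S phase cyclin and transcription factor groups 1 each. Mki67 differed by -1.46 ± 0.39 (adjusted p = 0.0142), Mcm6 by -1.39 ± 0.30 (0.00602) and Cdc45 by -2.71 ± 0.57 (0.00519). The comparisons share the same 12 libraries, so this term holds the Pre-Tx differences given above and the Post-Tx ones together. For Mki67, cKO over WT was 1.36 before transplant and -0.02 after it. Without TCF-1 cKO Post-Tx replicate 2 the count was 6, and without WT Post-Tx replicate 3 it was 9.

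Other genes of the same pathways were counted from lists of 38 further replication genes, 56 further mitosis genes and 31 other regulators. In WT, 25 of the 38 and 49 of the 56 rose after transplant and none fell, where 11.6% of all genes rose and 10.4% fell. Under the T cell scaling 6 and 29 rose, and 3 and 1 fell (all-gene median -1.67). The lowest p-values among them belonged to Gmnn, the inhibitor of Cdt1 (3.41 ± 0.37), Slbp, which binds histone mRNA (2.03 ± 0.23), Ckap2l, a spindle protein (4.12 ± 0.34), and Ncapg, a condensin subunit (3.72 ± 0.35). In cKO, 23 of 38 and 43 of 56 rose, and 1 of the 38 fell, where 14.2% of all genes rose and 12.5% fell. Under the T cell scaling 21 of the 56 and none of the 38 rose, and 2 and 5 fell (all-gene median -0.85). Of the other regulators 7 rose in WT and none fell (6 rose and 9 fell under the T cell scaling), among them Tfdp1, the partner of E2F factors (2.55 ± 0.34), and Cdkn3, a phosphatase of CDKs (4.07 ± 0.52). In cKO 7 rose, with E2f7 at 2.87 ± 0.43 and Cdc25c at 3.41 ± 0.57, and 4 fell (2 rose and 17 fell under the T cell scaling). The 4 included the antiproliferative genes Btg1 (-2.63 ± 0.36, adjusted p = 5.48e-05) and Btg2 (-1.71 ± 0.22, adjusted p = 3.51e-05).

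The same lists were counted between genotypes. Before transplant 14 of 38, 17 of 56 and 17 of 30 measured were higher in cKO under the T cell scaling, where the all-gene median was 0.70. The share of all genes called under that scaling was not counted at either stage, so these counts have no background beside them. In the reported fit 8.52% of all genes were higher and 5.65% lower. The higher genes of the lists were then 4 of 38, 1 of 56 and 4 of 30. They included Slbp (1.23 ± 0.23), Rfc3, a clamp loader subunit (1.46 ± 0.33), Ndc80, a kinetochore protein (2.14 ± 0.50), and Rbl2, the RB relative p130 (1.65 ± 0.35), and Brca2, a repair gene of the 38, was lower (-1.52 ± 0.46, adjusted p = 0.0484; -0.76, adjusted p = 0.273, under the T cell scaling). With each of the 6 libraries left out in turn, Slbp passed in 5 fits, Rfc3 and Rbl2 in 4, Ndc80 in 2 and Brca2 in 1. After transplant 3 of 30 other regulators were lower in cKO and 1 of the 38 replication genes higher, where 3.13% of all genes were lower and 3.52% higher. Under the T cell scaling 9 of 38, 21 of 56 and 5 of 30 were higher and none lower (all-gene median 0.91). Myc, which drives growth, was at 68.0, 49.9 and 59.4 TPM in WT Post-Tx and 35.4, 50.9 and 34.4 in cKO Post-Tx, and 1 cKO library lay within the WT range. Its log2 fold change was -0.89 ± 0.25 (adjusted p = 0.0414). Btg1 was at 63.2, 101 and 137 TPM in WT Post-Tx and 51.1, 42.6 and 68.0 in cKO Post-Tx (-1.05 ± 0.29, adjusted p = 0.0414), and Btg2 at 103, 103 and 111 against 74.0, 60.8 and 84.8 (-0.85 ± 0.23, adjusted p = 0.0391). Under the T cell scaling none of these 3 passed (Myc -0.04, adjusted p = 0.904; Btg1 -0.28, 0.517; Btg2 -0.04, 0.887), nor did they with upper-quartile factors. With each library left out in turn, Myc passed in 1 of 6 fits, Btg2 in 2 and Btg1 in 3. Brca2 was higher after transplant (1.32 ± 0.33, adjusted p = 0.0334; 2.14, adjusted p = 0.0259, under the T cell scaling; passing in 3 of 6 fits that left out 1 library), at 136, 326 and 130 TPM in cKO against 41.5, 80.0 and 33.2 in WT. The part in the Brca2 values of the olfactory receptor genes, which were higher in the same cKO libraries, was not tested.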

How the data were processed

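Reads were pseudoaligned by the authors with kallisto 0.46.2, and the deposited values are estimated counts and TPM for each transcript in 1 library per file; per the labels the build was mm9. Estimated counts and TPM were summed per gene by transcript identifier with the GENCODE vM21 annotation, which covered all but 0.282 to 0.386% of counts, and sums of counts were rounded to whole numbers. Libraries held 17103415 to 49486745 counts (median 21641413), with 27109156 to 49486745 in WT Post-Tx and 18022093 to 23098887 in cKO Post-Tx. The part of depth in the comparisons was not tested.

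Groups came from the labels. Counts were tested with edgeR 4.0.16 (R 4.3.3; TMM factors, filterByExpr, quasi-likelihood test, two-sided) over all genes that passed the filter, with Benjamini-Hochberg adjustment and a threshold of 0.05. Genotypes were compared within the 6 libraries of a stage, and stages and the interaction within all 12 libraries. Intervals are at 95%. Shares of all genes that passed were counted for the reported fit only, so counts under other settings have none beside them. The scripts were tested on simulated data. Of simulated log2 changes of 1, 2.1% were recovered in the WT transplant comparison and 0% in the interaction. Between genotypes 4.4% were recovered before transplant and 13.1% after it. For changes of 2 these values were 36.2%, 7.4%, 44.9% and 52.2%. A gene that did not pass can therefore still have changed. Replicates of a group differed by more than sampling noise. Alternatives, also applied to the wider lists after the data were seen, were other scaling factors, T cell marker scaling, DESeq2 1.42.0, limma 3.58.1 (voom, or log2 of TPM with a pseudocount of 1), other filters, length-scaled counts, a replicate block and leaving out each library. The members and lists were chosen with earlier results of these data known. Genes given in full were 18 chosen by role and up to 4 per role, or per wider list, with the smallest adjusted p. Lin54 was not analysed here.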

Additional observations from a re-analysis of the deposited data

Results flagged for a closer look

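By the interaction term of edgeR's quasi-likelihood test over all 12 libraries, the change after transplant differed between genotypes in 15 of 57 members. By the labels, it was smaller in cKO than in WT in each of the 15. Among all 21434 genes tested 28.6% differed, 11.5% with a smaller and 17.1% with a larger change in cKO. A difference between genotypes was therefore not particular to the members. The log2 differences, cKO minus WT, were -1.18 for Ccnd2, -1.74 for Ccna2 and -1.45 for Rbl1. Among replication genes they were -2.71 for Cdc45, -1.48 for Mcm4 and -1.39 for Mcm6. Among mitosis genes they were -1.63 for Ccnb1, -1.81 for Aurkb, -1.70 for Bub1b, -1.88 for Kif20a, -1.87 for Nusap1, -1.71 for Tpx2, -1.19 for Stmn1, -1.46 for Mki67 and -1.17 for Top2a. When each of the 12 libraries was left out in turn, the call was lost in 7 fits for Rbl1, in 6 for Ccnb1, Mcm4 and Stmn1, in 5 for Bub1b and Ccna2, in 2 for Ccnd2 and Top2a and in 1 for Aurkb, and in none for Cdc45, Mcm6, Kif20a, Nusap1, Tpx2 and Mki67. Upper-quartile factors gave 1 member with a smaller and 4 with a larger change in cKO.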

How the results depend on the processing

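Scaling to T cell marker counts moved the all-gene median to -1.67 in WT and -0.85 in cKO for the change after transplant, and to 0.70 before and 0.91 after transplant for cKO over WT. It gave 4 members lower in WT, 19 higher and 12 lower in cKO after transplant, 36 higher and 0 lower before transplant between genotypes, and 25 higher after. It reversed the sign for WT after transplant of Cdk4 (-1.20), Ccnd2 (-0.37), Ccnd3 (-1.01), Cdk2 (-0.09), E2f2 (-0.85), Cdt1 (-1.25), Mcm2 (-0.19) and Mcm5 (-0.09). For cKO after transplant it reversed Cdk6 (0.00), Ccnd3 (-0.44), Mcm2 (-0.65), Mcm3 (-0.02), Mcm4 (-0.13), Mcm6 (-0.32), Mcm7 (-0.72), Pcna (-0.17), Rrm1 (-0.05) and Cdc25b (-0.67). Between genotypes it reversed Cdk4 (0.68) and Ccnd3 (0.11) before transplant, and after it Cdk6 (0.68), Ccnd3 (0.69), Cdk2 (0.80), Foxm1 (0.83), Mcm4 (0.76), Mcm5 (0.58), Pcna (0.73), Tyms (0.81), Ccnb1 (0.68), Aurkb (0.67), Cenpa (0.59), Tpx2 (0.69), Prc1 (0.74), Stmn1 (0.60), Mki67 (0.83) and Top2a (0.81). Among values that passed under the reported or the other setting, no other setting turned a sign. Values that passed in neither did turn: for cKO over WT after transplant in 29 members with upper-quartile factors, 33 with limma on log2 TPM and 37 with a mean CPM of at least 10.

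Before transplant, members higher in cKO numbered 1 with upper-quartile factors, 19 with DESeq2, 16 with no low-count filter, 3 with a mean CPM of at least 10, 1 with length-scaled counts and 24 with all 12 libraries in the fit. Members lower numbered 2 with upper-quartile factors or a mean CPM of at least 10, and 0 with RLE factors, limma on log2 TPM, no filter, length-scaled counts, all libraries or a log2 fold change of at least 1. After transplant, 1 was higher with upper-quartile factors or limma on log2 TPM and 3 with a mean CPM of at least 10, and 1 was lower with DESeq2 or limma voom. In the interaction, 4 were higher with upper-quartile factors and 1 with a mean CPM of at least 10, and the number lower was 1 with upper-quartile factors, 27 with DESeq2, 5 with limma on log2 TPM, 28 with no filter, 2 with a mean CPM of at least 10 and 9 with length-scaled counts. Shares of all genes called under each of these settings were not counted, so the member counts have no background beside them. The causes were not tested.

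Leaving out each library in turn gave 46 to 50 members higher in WT after transplant, 37 to 44 higher and 0 to 1 lower in cKO, 0 to 3 higher and 0 to 0 lower before transplant between genotypes, 0 to 1 lower after it, and 6 to 20 lower in the interaction. Libraries with the same replicate number did not pair (correlations of their deviations ran from -0.272 to 0.248). With the replicate number as a block, 49 members were higher in WT, 41 in cKO, 6 before transplant between genotypes, 3 lower after it (Cdk4, Mcm7 and Cdc25b), and 12 lower in the interaction.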
